A study of Mus musculus with 31 samples.

Results

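The genes described here encode the meiotic cohesin subunits REC8, RAD21L, STAG3 and SMC1B and the proteins that tether telomeres to the nuclear envelope, TERB1, TERB2, MAJIN and SUN1. The 8 genes were named by their function and placed by their RefSeq span on GRCm38, the assembly also known as mm10, among 21887 protein-coding genes. For each gene, all hotspots whose midpoint lay inside the gene or within 5000 bp of its ends were collected from every list. The cohesin genes lie in mm10 with Rec8 at chr14:55618002-55625395, Rad21l at chr2:151644366-151670622, Stag3 at chr5:138272514-138312397 and Smc1b at chr15:85064689-85131957. The tethering genes lie with Terb1 at chr8:104446718-104509887, Terb2 at chr2:122186272-122206393, Majin at chr19:6184345-6224230 and Sun1 at chr5:139200564-139249839. This gave 90 hotspots: 13 in the Prdm9 knockout, 20 in inbred strains and 57 in F1 crosses.

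Cohesin is a ring that holds sister chromatids together, and in meiocytes several of its subunits are replaced by germline forms that also build the chromosome axis along which breaks are made and repaired. Telomeres of meiotic chromosomes attach to the nuclear envelope through the TERB1, TERB2 and MAJIN complex, and SUN1 spans the inner nuclear membrane and links them to cytoskeletal motors. The breaks themselves are placed in mice by PRDM9, a DNA-binding histone methyltransferase, and without it they form at other sites that carry the same histone mark, among them promoters. The genes are therefore examined here as places where breaks formed, not by their expression, which was not measured.

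The assay was DMC1 SSDS on mouse testis, which sequences single-stranded DNA that carries the strand-exchange protein DMC1, and each of 26 genotypes gave 1 hotspot list from 1 library. Of the 6 inbred strains, PWD stands for PWD/PhJ, MOL for MOLF/EiJ, CAST for CAST/EiJ, 13R for B10.F-H2pb1/(13R)J, C3H for C3H/HeJ and B6 for C57Bl/6J, and 19 lists came from F1 crosses among them, written with the mother (f) before the father (m). The knockout carried the allele Prdm9<tm1Ymat> from both parents, on a B6;129P2 background. Testes were frozen and thawed in a formaldehyde fixative, and the labels give neither age nor the number of animals. There is no replicate, so no difference between 2 lists has a replicate error, and no test was made. The inbred lists held 14539 to 19528 hotspots, the F1 lists 10445 to 19084 and the knockout list 30929; the read depth is unknown, and in bulk testis fewer cells with a break and fewer breaks per cell cannot be told apart. A label carries a doubt: a note in the series states that 1 record was removed because its name, CASTfx13Rm, was wrong, and that record is present here under the name CAST. The CAST list held none of the 13R places described below at Stag3, Terb1 and Majin. The knockout list had a B6 hotspot less than 400 bp away at 1.65% of its 30929 hotspots.

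Of the 6 genes with a listed start, 5 had a knockout hotspot centred within 1000 bp of it, against 54.1% of all such genes. Rad21l was the exception. For this reason the sequences before a listed transcription start of 4 of the genes are shown. They are RefSeq sequences of GRCm38.p6, written 5′ to 3′ on the strand of the gene, with every CG dinucleotide in capitals. For Terb1 (chr8:104509888-104510137, minus strand), Stag3 (chr5:138280259-138280508, plus strand) and Rad21l (chr2:151668534-151668783, minus strand), they are the 250 bases before the listed transcription start. For Smc1b (chr15:85131958-85132059, minus strand) only the 102 bases between Smc1b and the divergent gene Ribc2 are shown. The Stag3 and Rad21l sequences lie inside the spans of those genes. The sequence at the right end of Rad21l, near which its knockout hotspot was centred, was not examined.
Terb1: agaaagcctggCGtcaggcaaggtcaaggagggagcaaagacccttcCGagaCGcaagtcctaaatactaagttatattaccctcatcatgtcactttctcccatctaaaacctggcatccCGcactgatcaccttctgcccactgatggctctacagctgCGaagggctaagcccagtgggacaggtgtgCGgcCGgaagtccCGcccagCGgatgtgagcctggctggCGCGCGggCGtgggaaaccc
Stag3: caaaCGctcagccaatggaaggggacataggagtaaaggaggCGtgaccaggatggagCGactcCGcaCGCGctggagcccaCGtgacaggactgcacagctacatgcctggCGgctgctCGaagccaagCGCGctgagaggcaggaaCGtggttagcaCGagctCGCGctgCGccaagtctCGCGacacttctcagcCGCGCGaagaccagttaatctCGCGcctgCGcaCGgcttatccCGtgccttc
Rad21l: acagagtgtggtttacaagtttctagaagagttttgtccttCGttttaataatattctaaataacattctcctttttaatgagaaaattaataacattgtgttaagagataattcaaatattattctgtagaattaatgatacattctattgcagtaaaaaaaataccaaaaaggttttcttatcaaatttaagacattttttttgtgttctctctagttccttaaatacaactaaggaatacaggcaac
Smc1b: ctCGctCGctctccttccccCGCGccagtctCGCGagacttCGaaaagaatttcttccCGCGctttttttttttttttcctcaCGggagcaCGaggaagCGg

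Without PRDM9, each of the 8 genes had a hotspot, against 66.2% of all protein-coding genes by the same rule. At every gene the strongest knockout hotspot was centred within 300 bp of an annotated gene end or a listed transcription start, a limit chosen after the distances were seen. Of the 14493 genes with a knockout hotspot, 46.5% met the same rule. A hotspot within 1000 bp of either gene end was present at 7 of 8, against 51.0% of all genes; the exception was Stag3, whose span begins 7995 bp before its listed start. Of the 6 genes with a listed start, 5 had a knockout hotspot within 1000 bp of it, against 54.1% of the 17492 protein-coding genes with a listed start. The strength percentile, the percentage of hotspots in the same list with a lower strength score, ranged from 46.4 to 98.8 over the 8 genes with a median of 83.9, beside a median of 73.0 over the 14493 genes with a knockout hotspot. The median span of the members was 39885 bp against 17169 bp for all genes. A window around a longer gene covers more sequence, but Rec8 spans 7394 bp. The bearing of length on these counts was not tested. Among the strongest 5000 hotspots of the knockout list, 4 of the 8 genes had one, against 22.5% of all genes.

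**Figure D1:**
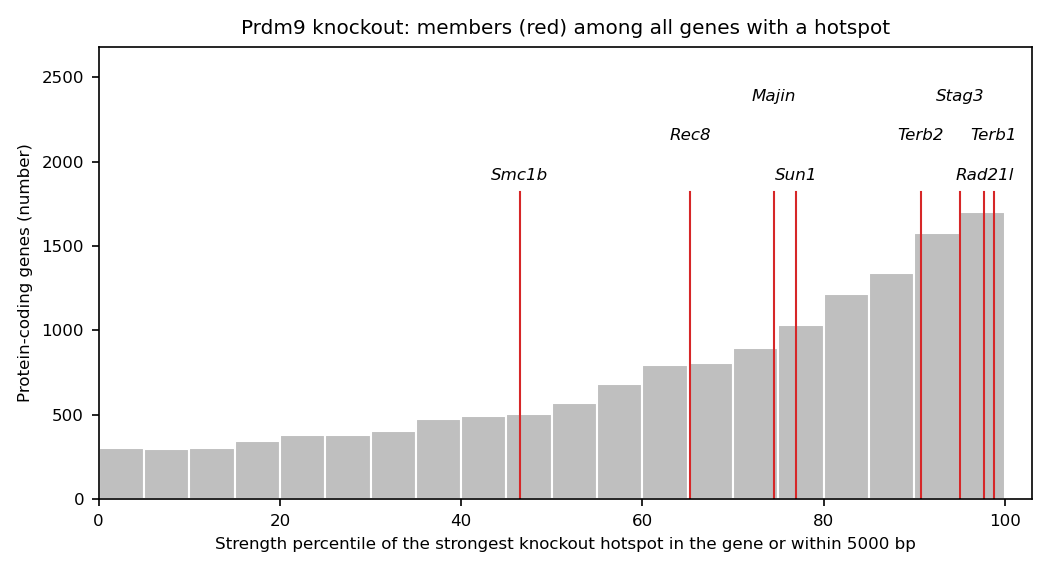
Histogram of protein-coding genes (y axis, number) by the strength percentile of their strongest knockout hotspot inside the gene or within 5000 bp (x axis), with red lines at the 8 genes described here. Terb1 (98.8), Rad21l (97.8), Stag3 (95.1) and Terb2 (90.7) lie at the right, and Smc1b (46.4) lies in the weaker part of the list.

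The strongest was at Terb1, the adaptor of the tethering complex that contacts the telomeric shelterin protein TRF1. It ranked 381 of 30929 (percentile 98.8), spanned 3322 bp on chromosome 8 (104507943 to 104511264) and was centred 283.5 bp inside the gene from the start shown above. Another knockout hotspot in the Terb1 window, at percentile 93.6, lay inside Dync1li2, 220.5 bp from an end of that gene, so it is nearer to Dync1li2 than to Terb1. The hotspot at Rad21l, a meiotic kleisin that closes the cohesin ring, ranked 694 (percentile 97.8; chromosome 2, 151668692 to 151672117). It was centred 217.5 bp from the right end of the gene span but 1871.5 bp from the only listed start, which lies 2089 bp inside that end. The listed Rad21l start is thus not where the knockout hotspot was centred, although the hotspot interval overlaps part of the sequence shown above. Rad21l lies on the minus strand, so the right end is the upstream end of its annotated span.

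Stag3, which encodes the cohesin subunit that joins the ring to the axis in meiosis, had 4 knockout hotspots. The strongest, of rank 1519 and percentile 95.1, was 4268 bp wide (chromosome 5, 138278283 to 138282550) and centred 92.5 bp from the listed Stag3 start and 479.5 bp from the divergent start of Gpc2, so the signal cannot be assigned to 1 of these genes. The other 3 lay further from the start and had percentiles of 31.8, 25.4 and 14.5. Terb2, the partner that joins TERB1 to MAJIN, had a knockout hotspot of rank 2868 and percentile 90.7 (chromosome 2, 122184510 to 122188003), centred 15.5 bp outside the gene and 67.5 bp from the start of Patl2, with 82 bp between the genes. Here too the 2 genes cannot be told apart.

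The remaining genes had weaker knockout hotspots. Sun1 had percentile 77.0 (rank 7111; chromosome 5, 139199376 to 139202333), centred 217.5 bp from its first listed start, and none within 1000 bp of its second start, whose nearest knockout hotspot centre was 14303.5 bp away. A further hotspot in its window, at percentile 74.6, lay inside the neighbour Get4, 218.5 bp from its end. Majin, the membrane-anchored subunit of the tethering complex, had percentile 74.5 (rank 7881; chromosome 19, 6183315 to 6185574), 99.5 bp from its left end. Rec8, the kleisin that is cleaved to release meiotic sister chromatids, had percentile 65.3 (rank 10745; chromosome 14, 55617097 to 55619284), 24.5 bp from its start. Smc1b, the meiotic form of the SMC1 arm of the ring, had the lowest, percentile 46.4 (rank 16561; chromosome 15, 85130397 to 85132920), 298.5 bp from its start and 439.5 bp from the start of Ribc2.

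The upstream sequences did not order as the knockout strengths did. Over 21263 promoters of protein-coding genes, the 250 bases before the start held a median of 10 CG dinucleotides: 17 in the 11029 with a knockout hotspot within 1000 bp of the start and 3 in the others. The counts were 30 at the first start of Sun1, 26 at Stag3, 25 at Smc1b, 13 at Terb1, 10 at Rec8, 1 at the second start of Sun1 and 1 at Rad21l. The Smc1b count includes bases beyond the 102 shown, which hold 12. Smc1b, with the weakest hotspot, thus had more CG than 87.7% of promoters or as many, and Terb1, with the strongest, lay near the middle at 60.5%. The 2 starts with 1 CG dinucleotide, those of Rad21l and the second of Sun1, were also the 2 starts with no knockout hotspot centre within 1000 bp. CCAAT, read on either strand, occurred in 35.4% of the promoters and upstream of Rec8 (3 matches), Stag3, Smc1b and both Sun1 starts, GGGCGG on either strand in 42.6% of promoters and upstream of Sun1 and Terb1, and the palindrome CACGTG in 6.63% of promoters and upstream of Stag3. These matches describe letters only.

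With PRDM9 present, fewer of the hotspots lay near gene ends. Within 1000 bp of an end lay 9 of the 77 hotspots (11.7%) of the 25 other lists, beside 6.41% over the windows of all protein-coding genes, and 7 of the 13 knockout hotspots (53.8%), beside 47.4%. The 9 were the place at the right end of Rec8, called in 7 related lists, and 2 F1 hotspots near the Terb1 start. They are thus repeated calls in lists that share parents, not separate sites. The shares centred inside the gene were 64 of 77 (83.1%, beside 84.9% over all genes) and 10 of 13 (76.9%, beside 73.9%). The inside shares at the 8 genes were near those of all genes. Of the 8 genes, 7 had a hotspot in at least 1 of the 25 lists, against 68.5% of all genes. The median span of the 8 genes was 39885 bp against 17169 bp for all genes, but Rec8 spans 7394 bp. Of genes spanning 50000 to 85000 bp, 4.88% had no hotspot in these lists, beside 31.5% of all genes. This range was chosen after the result at Smc1b was seen. Of the members, only Terb1 (63170 bp) and Smc1b (67269 bp) fall in it, so it is no background for the 8 genes together. The bearing of length on the counts with PRDM9 was not tested. The number differed between lists. Among inbred strains, the genes with a hotspot numbered 4 in CAST (26.6% of all genes), 4 in PWD (25.7%), 3 in 13R (25.6%), 3 in MOL (27.2%), 2 in B6 (30.6%) and 2 in C3H (24.8%). The median was 3 of 8 over the inbred lists and 3 of 8 over the F1 lists, beside medians of 26.2% and 26.4% of all genes. CAST and PWD, with 50% of the 8 genes each, lay above their background, while B6 and C3H, with 25% each, lay below or close to theirs. Each gene is 12.5% of the 8, so these lists differ by few genes, and no test was made. The CAST genes were Terb1 (percentile 0.557), Majin (15.2), Rec8 (21.1) and Terb2 (62.7), the last by a hotspot inside Patl2. Those of PWD were Sun1 (27.5), Terb1 (65.9), Majin (75.9) and Rec8 (86.8). None of these lists reached the 8 of 8 of the knockout, whose list is the longest. With each list cut to its strongest hotspots at the shortest list length, the knockout had 6 of 8. The medians were then 2 over the inbred lists and 2 over the F1 lists. The share of all genes at that length is not given here.

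Among crosses of 13R, the number was 4 in 13RfXB6m (24.0% of all genes), and 3 each in B6fX13Rm (20.0%), C3HfX13Rm (26.3%), MOLfX13Rm (28.1%) and PWDfX13Rm (25.4%). PWDfXCASTm had the most, 6 (31.8%), followed by PWDfXMOLm with 5 (28.6%), PWDfXC3Hm with 4 (28.6%), PWDfXB6m with 3 (31.5%) and B6fXPWDm with 2 (25.1%). The crosses of C3H had 3 in C3HfXCASTm (24.5%), 3 in C3HfXMOLm (26.4%), 2 in C3HfXB6m (28.4%) and 2 in B6fXC3Hm (23.9%). The remaining crosses had 2 in B6fXCASTm (26.4%), 2 in CASTfXB6m (27.0%) and the lowest number, 1 each, in B6fXMOLm (23.1%), MOLfXB6m (27.7%) and CASTfXMOLm (28.1%). PWDfXCASTm, with 75.0% of the 8 genes, and PWDfXMOLm, with 62.5%, thus stood highest above their background, and the 3 crosses with 1 gene, or 12.5%, below it. The 6 genes of PWDfXCASTm were Majin (percentile 1.22), Terb1 (20.1), Rec8 (22.2), Stag3 (31.3), Terb2 (62.2) and Rad21l (89.4), so several of its hotspots were weak. PWDfXCASTm is also the longest F1 list, and the bearing of list length was not tested.

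**Figure D2:**
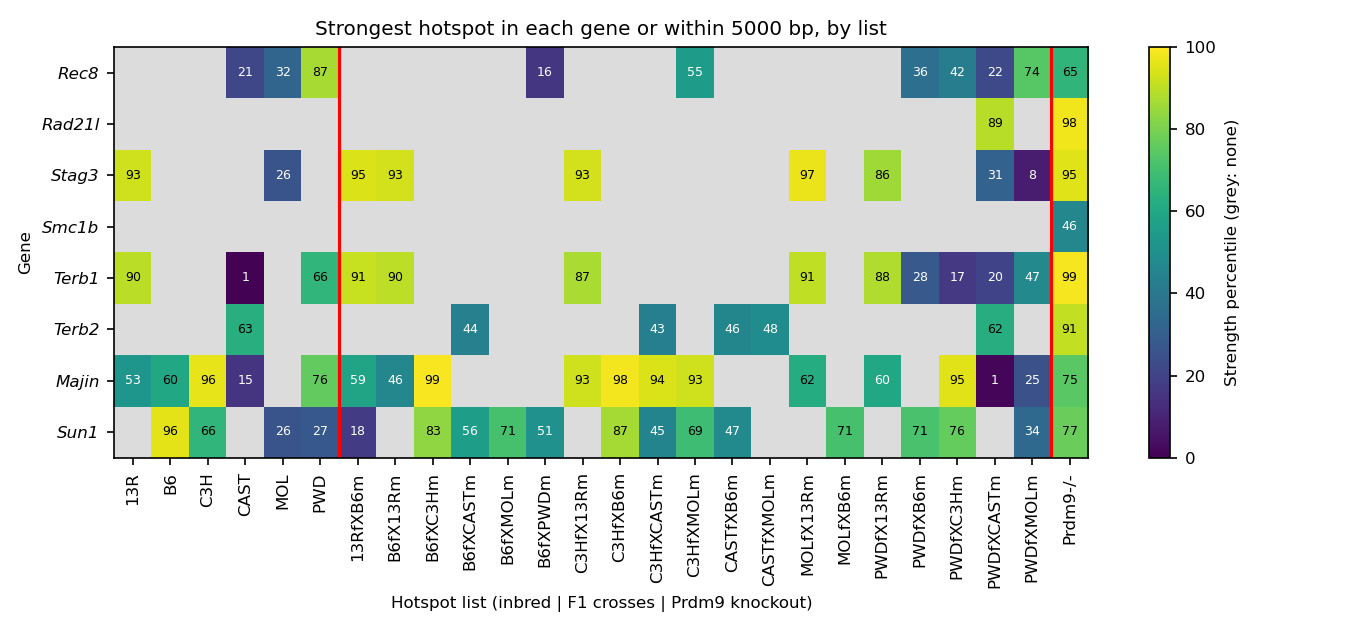
Strength percentile of the strongest hotspot inside each gene or within 5000 bp (rows) in each list (columns), for inbred strains, F1 crosses and the knockout, separated by red lines; grey means that the list has none. The knockout column is filled for all 8 genes, Smc1b is grey in the 25 other lists, and outside the knockout the highest values of Stag3 and Terb1 fall on 13R and its crosses and those of Majin on C3H and its crosses.

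To see which strain each hotspot belonged to, centres less than 400 bp apart were joined across the lists into 32 places. The knockout used 13 of them, and 11 of these (84.6%) appeared in no other list, beside 93.0% of all knockout hotspots with no other list's centre less than 400 bp away. The remaining 19 places never included a knockout hotspot. Of these, 10 were found in 1 inbred strain, 5 in 2 strains, 4 in none and 0 in 3 or more. This split has no share of all hotspots beside it, so it cannot be read as particular to these genes. It also rests on the 400 bp limit. Joining at 200 bp gave 35 places and at 1000 bp 31, and the split at those limits was not counted. The Terb1 place of 13R and PWD, counted in 2 strains, had centres spread over 739 bp. Of the 57 F1 hotspots, 50 (87.7%) lay at a place held by a parent of that cross, beside 81.9% of all F1 hotspots with a parent's centre less than 400 bp away. Without the list labelled CAST the number was 44 of 57. Of the 20 inbred hotspots, 5 recurred in every cross with that parent, 10 in some and 5 in none. Those in every cross had percentiles of 52.7 to 96.4 in the inbred strain and those in no cross 0.557 to 40.9. The 10 held in some crosses overlapped both, from 15.2 to 95.7. Over the whole lists, hotspots held by every cross with that parent were 48.2% of 13R, 46.3% of CAST, 21.9% of MOL, 14.4% of PWD, 13.3% of C3H and 5.37% of B6 hotspots, and 28.1% of the 94300 inbred hotspots were in no cross with that parent.

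**Figure D3:**
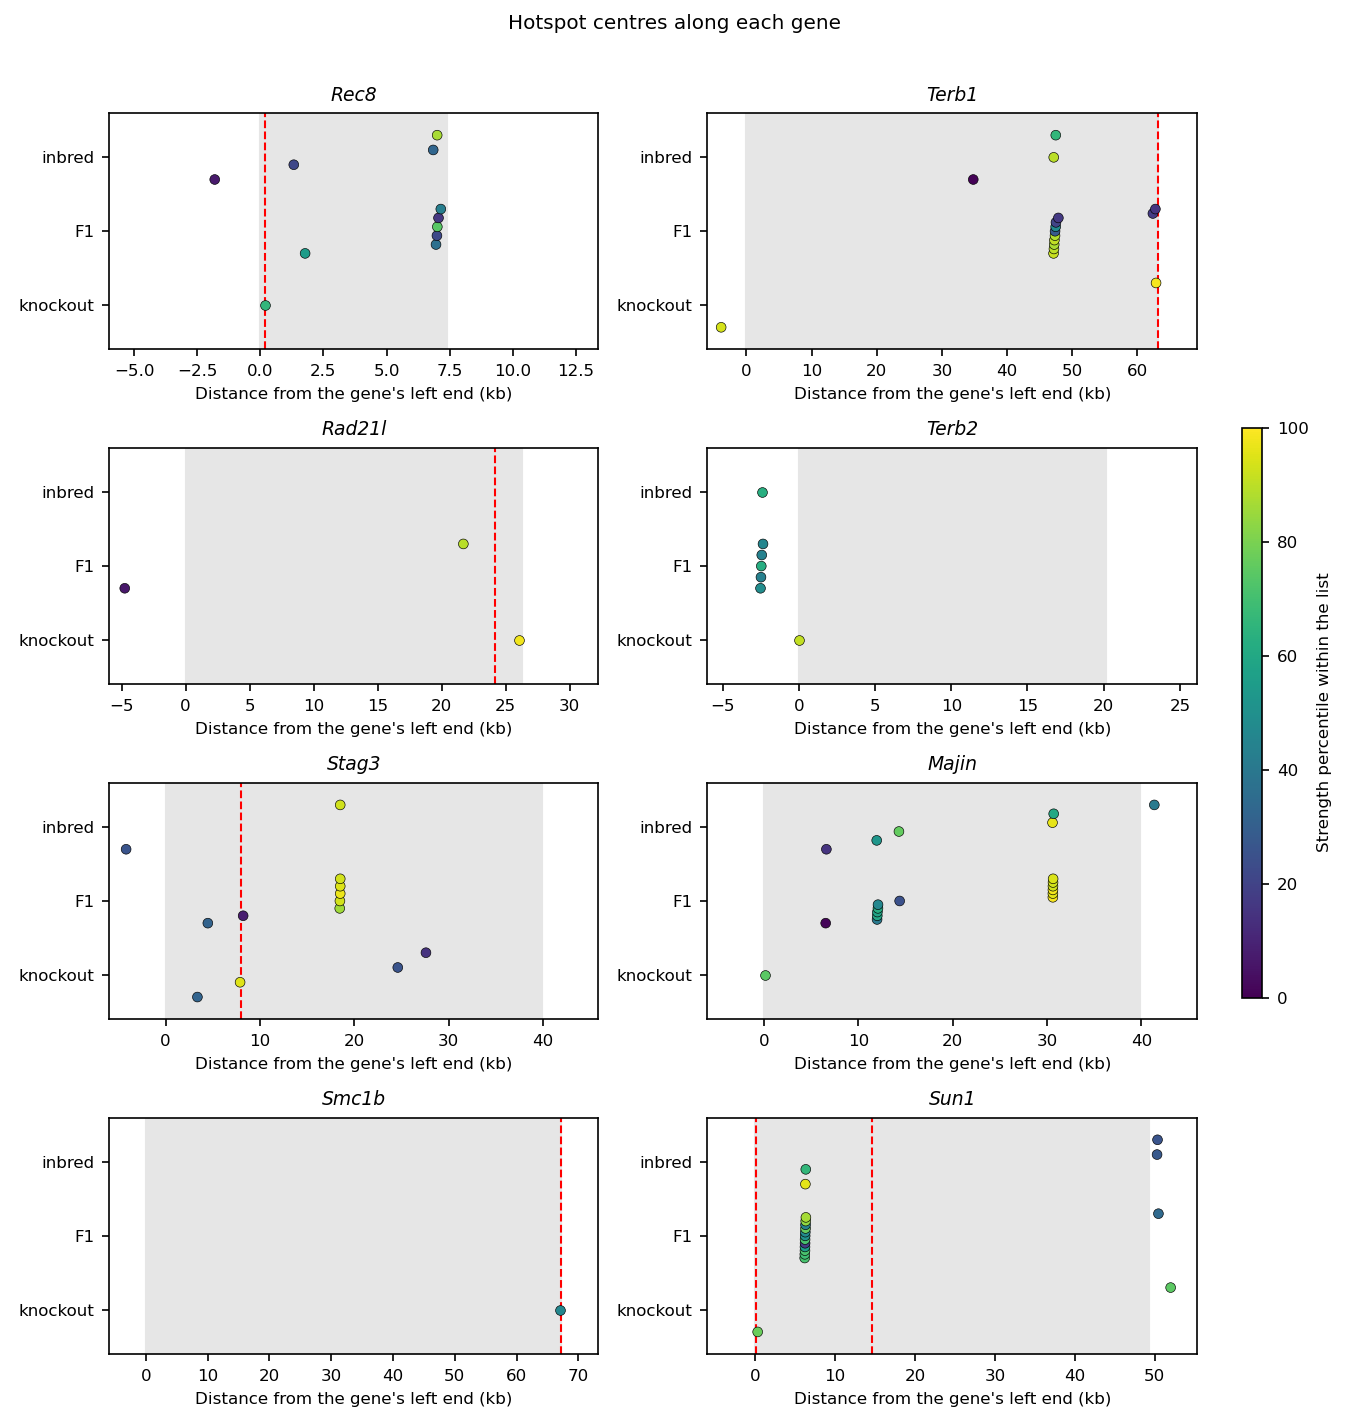
Hotspot centres along each gene: distance from the lower-coordinate end of the gene (x axis, kb), the gene span in grey, listed starts as dashed red lines, rows for inbred, F1 and knockout lists, and colour for strength percentile; points are spread vertically within a row only to separate them. The strongest knockout point of each gene lies at a start or an end, and columns of F1 points stand under the inbred point whose place they share.

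Stag3 carried a strong hotspot of 13R, 18513.5 bp (median over lists) from its left end. In 13R it spanned 138289567 to 138292488 on chromosome 5 at percentile 92.9. The 5 crosses with a 13R parent all held it, at 93.3 in B6fX13Rm, 94.6 in 13RfXB6m, 93.1 in C3HfX13Rm, 96.9 in MOLfX13Rm and 85.6 in PWDfX13Rm, and the 14 crosses without one did not. The 6 centres fell within 53 bp. The only other hotspots of the 25 lists in the Stag3 window were at percentile 25.9 in MOL, 31.3 in PWDfXCASTm and 8.08 in PWDfXMOLm. The MOL hotspot lay 4175.5 bp outside Stag3 and inside Gal3st4, and that of PWDfXCASTm lay where Stag3 and Gpc2 overlap.

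Terb1 held another strong 13R hotspot, at percentile 89.5 in 13R (chromosome 8, 104492658 to 104495125). It had 91.4 in 13RfXB6m, 90.0 in B6fX13Rm, 87.1 in C3HfX13Rm, 90.6 in MOLfX13Rm and 87.9 in PWDfX13Rm. PWD had a hotspot centred 313 bp away at 65.9, which was joined to the same place although the 2 strains may use separate sites there; the lists do not resolve this. In PWD crosses without 13R it was weaker, at 47.1 in PWDfXMOLm, 28.1 in PWDfXB6m, 20.1 in PWDfXCASTm and 16.8 in PWDfXC3Hm, and B6fXPWDm had none. All 5 of the 13R crosses therefore stood above PWD itself, and the other 4 PWD crosses below it.

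Majin was the gene with the most hotspots from lists with PRDM9, 19 in all, at 5 places, and each of B6, C3H, 13R, CAST and PWD had at least 1. The strongest place was that of C3H, at percentile 96.4 (chromosome 19, 6212349 to 6217488), and all 6 C3H crosses held it. Their values ran from 92.6 in C3HfXMOLm to 98.95 in B6fXC3Hm, where it ranked 143, with a median of 94.9. B6 had a hotspot at the same place at 60.1, yet of 10 crosses with a B6 parent only the 2 with C3H held it. The 13R place, at 52.7 in 13R, was held by all 5 crosses with 13R at 40.3 to 61.7. The PWD place had percentile 75.9 in PWD and 24.9 in PWDfXMOLm, and was missing in the other 5 PWD crosses; that of CAST had 15.2 in CAST and 1.22 in PWDfXCASTm and was missing in the other 4 CAST crosses. B6 had a further weak hotspot at 40.9, outside the gene by 1477.5 bp, that no cross held.

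Sun1 had the most widely shared place, 14 lists, and it followed B6 and C3H. B6 had it at percentile 95.7 (rank 836; chromosome 5, 139205586 to 139208069) and C3H at 66.0, 6245.5 bp (median over lists) from the left end of the gene. It was present in 12 of the 14 crosses with a B6 or C3H parent and in 0 of the 5 others. The 2 crosses without it, B6fX13Rm and C3HfX13Rm, both have a 13R father, and the reciprocal 13RfXB6m held it at 17.7, the lowest value of all. B6fX13Rm is the shortest of all lists, but C3HfX13Rm has 15936 hotspots, more than B6fXMOLm (12610), which held the place. The bearing of list length was not tested. The crosses of B6 with C3H had 83.4 (B6fXC3Hm) and 86.6 (C3HfXB6m), between the 2 strains, and those of B6 with MOL 70.9 (B6fXMOLm) and 71.0 (MOLfXB6m). With CAST they had 55.7 (B6fXCASTm) and 47.5 (CASTfXB6m), and with PWD 50.8 (B6fXPWDm) and 71.5 (PWDfXB6m). Every B6 cross therefore lay below B6 itself. The C3H crosses without B6 had 76.2 (PWDfXC3Hm), 68.9 (C3HfXMOLm) and 45.2 (C3HfXCASTm), on either side of C3H. A weaker place 1060.5 bp beyond the right end was held by PWD at 27.5, MOL at 26.0 and their cross PWDfXMOLm at 34.2, and by none of the other 10 crosses with 1 of these parents.

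Rec8 and Terb2 had places of PWD and CAST. At Rec8 the place lay at the far end of the gene, 389.5 bp (median over lists) from its right end and next to Ipo4, whose span lies 4 bp beyond it. PWD had it at percentile 86.8 (chromosome 14, 55623935 to 55626076) and MOL at 32.5. Of the 6 crosses with a MOL parent, only PWDfXMOLm held it. PWDfXMOLm, the cross of those strains, had 73.8, and the other PWD crosses had 42.2 (PWDfXC3Hm), 36.5 (PWDfXB6m), 22.2 (PWDfXCASTm) and 15.7 (B6fXPWDm), with none in PWDfX13Rm. All 5 values lay below PWD. The CAST list had 2 weak hotspots at Rec8, at 6.71 and 21.1, which no CAST cross held.

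At Terb2 the place lay outside the gene, 2412.5 bp from its left end in CAST, and inside Patl2, so by position it belongs to Patl2. CAST had percentile 62.7 (chromosome 2, 122182464 to 122185255), and PWDfXCASTm 62.2, CASTfXMOLm 48.5, CASTfXB6m 45.8, B6fXCASTm 43.7 and C3HfXCASTm 43.1. It was in all 5 crosses labelled with a CAST parent and in no other list, and no other place of the 25 lists lay in the Terb2 window. Without the list labelled CAST, the 5 crosses still held it. The Terb1 hotspot of CAST, at 0.557, was among the weakest of its list and in no cross.

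**Figure D4:**
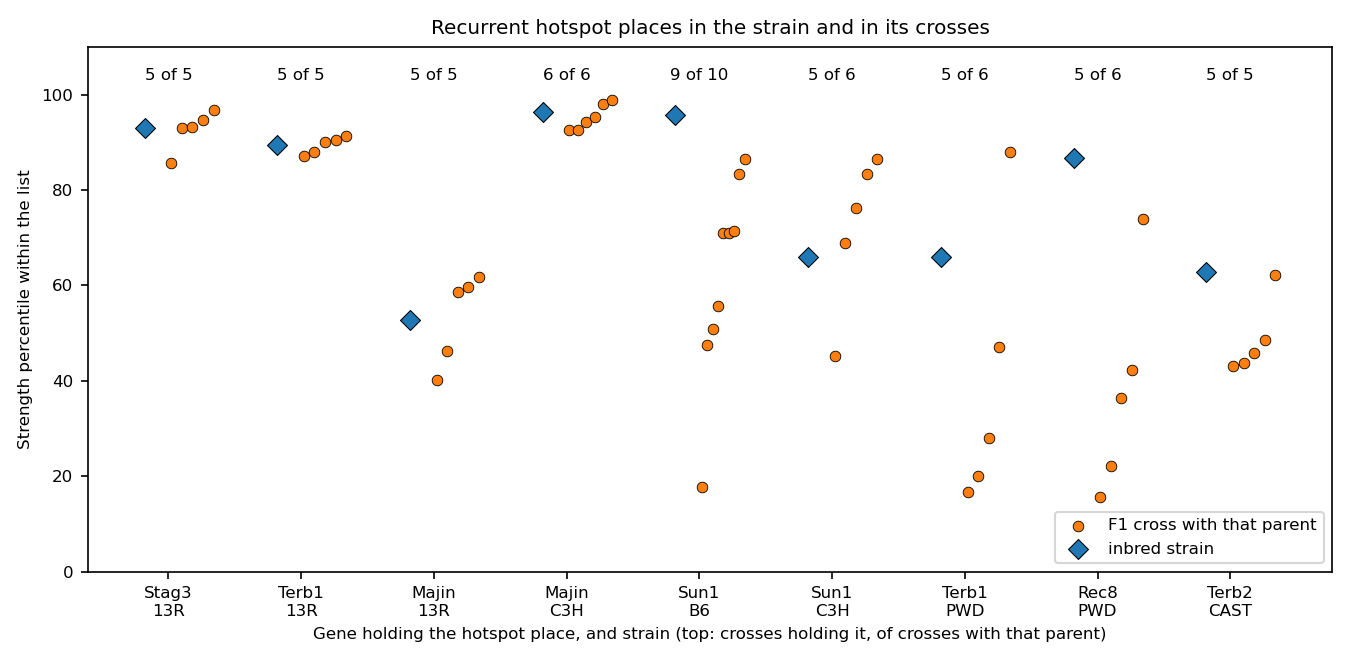
Strength percentile (y axis) of recurrent places in the inbred strain (blue diamonds) and in each F1 cross with that strain as a parent that held the place (orange circles); the gene and strain are on the x axis, and the number of crosses holding it, of all crosses with that parent, is on top. The 13R and C3H places at Stag3, Terb1 and Majin have circles on both sides of the diamond, while at Sun1 (B6), Rec8 (PWD) and Terb2 (CAST) every circle lies below the diamond.

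There were 7 F1 hotspots that lay at no place of either parent. PWDfXCASTm had 3 of them. At Rad21l it had a hotspot inside the gene at percentile 89.4 (rank 2021; chromosome 2, 151664654 to 151667473), 4341 bp from the knockout hotspot, and a weak one at 6.37 lying 4761.5 bp outside its left end, and these were the only Rad21l hotspots in the 25 lists. The third lay at Stag3 at 31.3. C3HfXMOLm had 1 at Rec8, at 55.0, centred 449 bp from a weak CAST hotspot. The other 3 lay close to knockout hotspots, as described next.

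A few hotspots of PWD crosses lay at the knockout hotspots of these genes. PWDfXB6m had a hotspot centred 104 bp from the knockout hotspot at Terb1, at percentile 15.1, and PWDfXMOLm had 1 centred 324 bp from that of Stag3, at 8.08. A further PWDfXMOLm hotspot at Terb1, at 17.5, lay 489 bp from the knockout centre, beyond the 400 bp limit. Terb1 and Stag3 were among the genes with the strongest knockout hotspots, at 98.8 and 95.1. All 3 hotspots were weak in the crosses. Over the 200 pairs of a gene and a list this was 2 pairs, 1.00%, beside 1.64% over all genes with a knockout hotspot. By list, 8.07% of all such genes were matched in PWDfXB6m and 3.57% in PWDfXMOLm, and 1 of 8 here in each, so these numbers do not set the members apart. Counting any overlap of intervals in place of centres gave 15 pairs, 7.5%, beside 5.79% over all genes.

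Smc1b had no hotspot in any of the 25 lists with PRDM9, over a span of 67269 bp. The nearest hotspot to its knockout centre in those lists was 24550 bp away, in PWDfXCASTm and outside the window. Of 2010 protein-coding genes with spans of 50000 to 85000 bp, a range chosen after this was seen, 98 (4.88%) had no hotspot in any of the 25 lists, beside 31.5% of all genes. Smc1b also had the weakest knockout hotspot of the 8.

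The wider pathway was read in the same way from a list of 33 genes, 18 for other cohesin subunits and regulators and 15 for telomere attachment and the nuclear envelope bridge. In the knockout, 32 had a hotspot in the gene or within 5000 bp (background 66.2%), 28 within 1000 bp of a gene end (51.0%) and 24 of 25 with a listed start within 1000 bp of it (54.1%). Lmnb2, a nuclear lamina gene, was the exception. The median percentile was 90.7 for the 18 cohesin genes and 81.6 for the telomere genes with a hotspot. These percentiles are over all chromosomes, not autosomes alone, and Smc1a, Stag2 and Hdac8 are on the X chromosome. The values reached down to 3.62 at Pds5b, 23.4 at Cdca5 and 32.6 at Cdk2. The strongest were at Stag2, a somatic counterpart of Stag3 on the X chromosome (99.7), Terf2ip, the shelterin gene for RAP1 (99.6), Esco1, a cohesin acetyltransferase (99.1), Terf1, which encodes TRF1 (98.9), Nipbl, the cohesin loader (98.9), and Spdya, an activator of CDK2 at meiotic telomeres (98.9). In the lists with PRDM9, 29 of the 33 had a hotspot in at least 1 list, beside 68.5% of all genes. The spans of the 33 genes were not set beside those of all genes, and the bearing of length was not tested. Kash5, the partner of SUN1 in the nuclear bridge and named here after its values were seen, had a knockout hotspot at 70.1 and appeared in 1 inbred and 1 F1 list.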

How the data were processed

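The authors deposited 1 hotspot list for each DMC1 SSDS library, giving intervals and, for each, a score of strength. CASAVA 1.8, MACS2 2.0.10 and the build mm10 are named in the submitters' processing notes. For filters, the formula of the deposited score and pooling of animals, the sources used here give nothing. Of 414683 scores, 104 lie below 0, in 22 of 26 lists, so the score was used only within a list, as a rank or percentile. The 5 input samples were not analysed here.

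Starts were raised by 1 to be 1-based, on the assumption that they were deposited counting from 0, and a hotspot was placed by its midpoint. Gene spans and promoter sequences came from RefSeq tables of GRCm38.p6, a patch release of GRCm38 (mm10); 6 of the 8 genes had a listed start, and Terb2 and Majin are named only by their ends. Exons and introns were not used. Lists were compared with Python 3.11.15, numpy 2.4.6 and pandas 2.3.3, and the counting was tested on simulated data. With 1 library for each genotype no test was made, and lists with a parent in common are not independent. Counts of members stand beside the percentage of all protein-coding genes called by the same rule.

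The members, pathway list and rules were chosen with earlier results of these data known. All members were named, with the 6 pathway genes of highest knockout percentile and, for members in 4 or more lists, the 2 most similar genes. Alternatives covered the window, the placing and matching of hotspots and the strength of those used.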

Additional observations from a re-analysis of the deposited data

How the results depend on the processing

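Of 36 alternative settings over 7 quantities, 28 left the value as it was or a count within 1.5 times it, and the other 8 are given here, some of them small shifts. With the strongest 5000 hotspots of each list, 4 of 8 genes had a knockout hotspot, beside 22.5% of all genes, and 2 had one at the start. The median was 1.5 genes over inbred lists and 1 over F1 lists. Fewer hotspots were used there. The start count and the medians have no share of all genes beside them at this setting, so they cannot be set against a background. The knockout median percentile was 84.3 over autosomal hotspots. It was 69.9 when strength was summed over the window and ranked among genes with a hotspot. That value is a percentile over genes, so it cannot be set beside the median of 73.0 given above, which is over hotspots. Matches of other lists to knockout hotspots at the genes numbered 1 at 200 bp and 15 with any overlap of intervals. The libraries have no replicates and their depth is unknown, so a missing hotspot is one that was not called.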

Other observations

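For each of the 6 genes with a hotspot in 4 or more lists, the protein-coding genes on other chromosomes with the most similar pattern were found by Pearson's r over the 26 lists, using the percentile of the strongest hotspot in the gene or within 5000 bp and 0 where there was none. These values are descriptions over lists that share parents, picked from all protein-coding genes, and carry no test. Terb2, with its CAST place, was closest to Cenpv (r = 0.995) and Ankrd34a (0.994), each present in the same 7 lists. Stag3, led by 13R and the knockout, was closest to Ybx1 (0.985, 8 of its 10 lists shared) and Kif18b (0.985, 8 shared). Terb1, in 13 lists, was closest to Ndufb3 (0.985, 12 shared) and Slc35b3 (0.972, 9 shared). Sun1, in 18 lists, was closest to C1galt1 (0.951, 15 shared) and Cbr4 (0.930, 15 shared). Majin, also in 18 lists, was closest to Ppil4 (0.902, 16 shared) and Ptpn3 (0.902, 16 shared), and Rec8, in 10 lists, to Pkp2 (0.887, 9 shared) and Lemd3 (0.874, 9 shared).

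Knockout hotspots in the windows of the 8 genes had a median width of 2958 bp, beside 2098 bp over the whole knockout list.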
